A study of Mus musculus with 12 samples.

Results

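The 42 genes described here act in homologous recombination and the wider DNA damage response, namely the BRCA complex, strand exchange, the Fanconi anaemia pathway, end processing, the checkpoint, other break repair, and mismatch repair, base excision and damage bypass. They were chosen by gene symbol, as the rows of 3 deposited tables that carry one of 42 names. Of the 42 genes, 39 had a row in at least one table, out of 10289 genes that the tables list in all. Fancc, Fancg and Xrcc3 had no row.

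The cells were C2C12, a mouse myoblast line that fuses into myotubes when serum is lowered. All lines were stable lentiviral transductants selected with puromycin, carrying a CMV-driven insert that was GFP as the negative control, mouse METTL3 or mouse METTL14, the paired subunits of the m6A writer of messenger RNA. The groups compared were 4, of 2 RNA-seq libraries each: GFP cells in growth medium (GM, DMEM with fetal bovine serum, day 0), GFP cells at day 4 of differentiation (D4, medium with horse serum), METTL3 cells in GM and METTL14 cells in GM. The titles of the METTL14 libraries give day 0 whereas their time point field gives day 4, and the title was followed. A further 4 libraries for m6A immunoprecipitation or its input were not analysed here.

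Homologous recombination copies the lost sequence of a broken chromosome from the sister chromatid. Broken ends are trimmed to single strands by the MRN nuclease complex and its partners, BRCA1 with BARD1 directs the process, PALB2 and BRCA2 act at the step of strand invasion, and helicases and nucleases resolve the joined molecules. The kinases ATM and ATR sense breaks and stalled forks and halt the cell cycle through CHK2 and CHK1. Because a sister chromatid exists only after replication, this pathway is known for its activity in cycling cells, whereas end joining also serves cells that have left the cycle, as myotubes have.

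Each table holds the genes that the authors kept at an adjusted p of at most 0.05 in one comparison, which is D4 against GM in GFP cells, METTL3 against GFP in GM, or METTL14 against GFP in GM. A gene with a row is called listed. For each listed gene the tables give one mean normalized count, with no value per library, no SD and no n. It was the same in every table that lists a gene and is therefore read as the authors' mean over the libraries of all 4 groups. The fold changes and p-values in the tables are the authors' own comparisons and were not used, so that no direction, size of change or test is given here. The 3 comparisons share the GFP libraries in GM and are therefore not independent. The tables give no depth per library. In bulk RNA, fewer cells of a type and less RNA per cell cannot be told apart.

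All 10 muscle markers examined were listed, with mean normalized counts from 593 for Myf5, a myoblast transcription factor, to 53546 for Acta1, skeletal actin. Of 6 further markers, Ptprc, Pecam1, Adipoq, Sox10 and Krt5, of other cell types, had no row and hence no value. This absence says nothing of their expression. The last, Pax7, the satellite cell factor, was listed in all 3 comparisons and had a mean of 21.7.

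Sequences before the annotated starts of Atr, Bard1 and Brca2 are given first, since these genes were listed in a METTL3 or METTL14 table and had a RefSeq promoter window. The letters are the GRCm38.p6 reference, read 5′ to 3′ on the strand of the gene. Capitals mark matches to an E2F motif or to the cell cycle homology region (CHR), which are described further on. Bases within the Bard1 gene as GENCODE annotates it were left out, which leaves 76 bases.
Atr (chr9:95857347-95857596, plus strand): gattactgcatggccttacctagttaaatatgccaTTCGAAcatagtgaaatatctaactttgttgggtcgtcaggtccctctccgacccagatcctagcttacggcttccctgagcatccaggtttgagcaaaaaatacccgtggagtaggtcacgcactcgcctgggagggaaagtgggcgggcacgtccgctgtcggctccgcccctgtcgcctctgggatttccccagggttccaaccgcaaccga
Bard1 (chr1:71103147-71103222, minus strand): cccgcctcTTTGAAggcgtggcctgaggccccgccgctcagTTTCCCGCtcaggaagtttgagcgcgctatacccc
Brca2 (chr5:150522371-150522620, plus strand): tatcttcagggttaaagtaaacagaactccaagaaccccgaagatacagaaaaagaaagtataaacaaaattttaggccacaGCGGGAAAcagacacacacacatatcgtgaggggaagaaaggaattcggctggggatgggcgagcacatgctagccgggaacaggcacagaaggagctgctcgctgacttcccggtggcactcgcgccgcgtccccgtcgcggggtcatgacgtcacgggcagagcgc
Atr held a CHR match that began 215 bases before the start. Bard1 held a CHR match at 242 bases and an E2F match at 209 bases before its RefSeq start. That start lies within the gene as GENCODE annotates it, so these distances exceed the 76 bases shown. Brca2 held an E2F match at 168 bases before the start, on the other strand.

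The first comparison asked which genes differ when myoblasts are taken to D4. Of the 42 repair genes, 38 were listed (90.5%), against 40.0% of all 22028 annotated protein-coding genes. That denominator includes genes that these cells may not express. Among the 9257 protein-coding genes with a row in any table, D4 against GM listed 95.1%, and among the 39 repair genes with a row it listed 97.4%. The share of repair genes was thus above that of all annotated genes but close to that of genes with any row. The 42 genes were chosen with earlier results of these data known. The contrast with all annotated genes may therefore owe part to that choice and was not tested.

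All 5 members of the BRCA complex were listed at D4. So were all 6 genes of end processing and junction cutting, all 4 of other break repair and all 4 of mismatch repair, base excision and bypass. Of the strand exchange genes, 6 of 7 were listed, without Xrcc3. Of the checkpoint genes, 8 of 9 were listed, without Atr. Of the Fanconi anaemia genes, 5 of 7 were listed, without Fancc and Fancg. Beside these counts, D4 against GM listed 40.0% of all protein-coding genes and 95.1% of those with a row in any table. Differences between the groups were not tested. A gene without a row has no value here, which does not show that it did not differ.

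**Figure D1:**
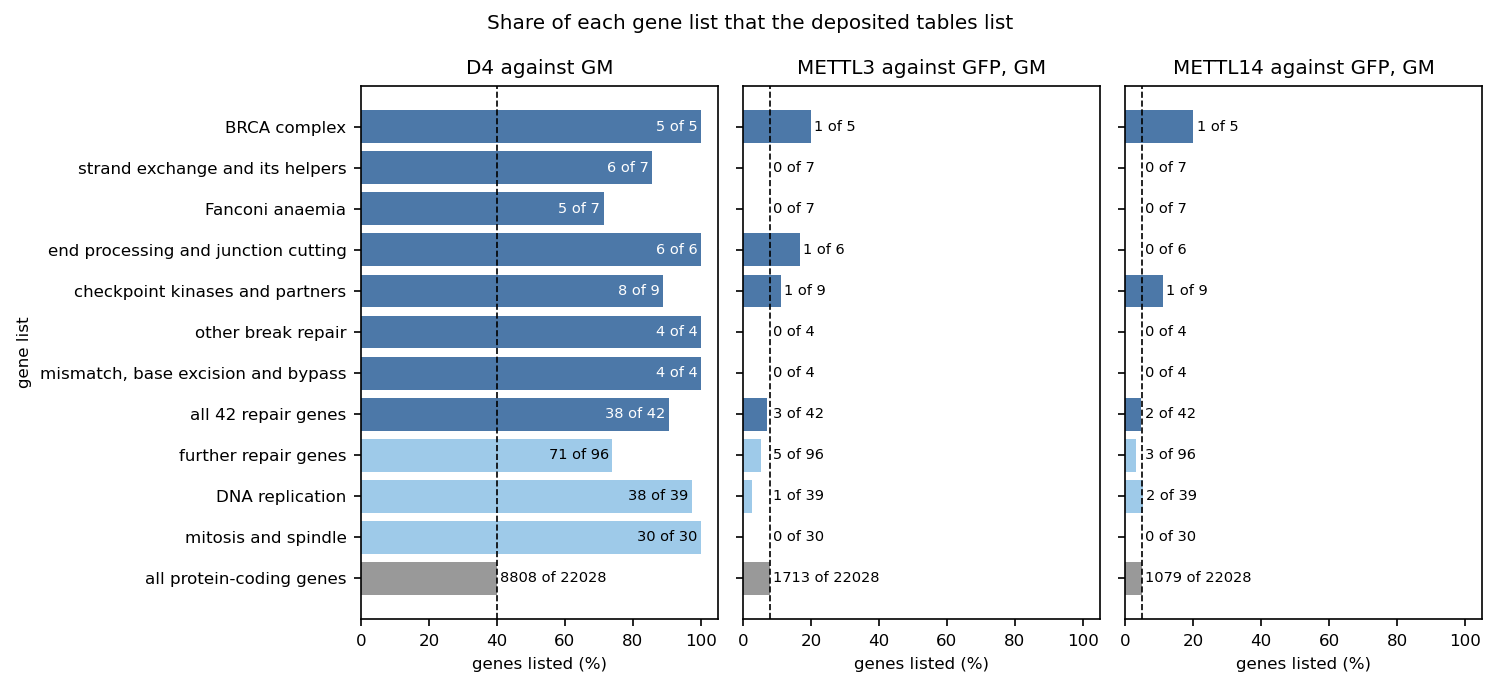
Bars show the share of each gene list (vertical axis) that a table lists, in percent (horizontal axis), for D4 against GM, METTL3 against GFP and METTL14 against GFP, with the dashed line at the share of all protein-coding genes. All 7 groups of repair genes lie above the line at D4, whereas the 42 genes together lie close to it for METTL3 (3 of 42) and METTL14 (2 of 42). The line includes genes that these cells may not express, and the repair genes were chosen with earlier results of these data known. Among protein-coding genes with a row in any table the shares were 95.1%, 18.5% and 11.7%, which the line does not show. Of the 39 repair genes with a row, the comparisons listed 38, 3 and 2.

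The comparisons with METTL3 and METTL14 asked which genes differ when a writer subunit is overexpressed in growing myoblasts. METTL3 against GFP listed 3 of the 42 genes (7.14%), Atr, Brca2 and Nbn, against 7.78% of all protein-coding genes. METTL14 against GFP listed 2 of the 42 (4.76%), Atr and Bard1, against 4.90% of all protein-coding genes. In each comparison the share of repair genes was near that of all annotated protein-coding genes. Among protein-coding genes with a row in any table the shares were 18.5% for METTL3 and 11.7% for METTL14. Of the 39 repair genes with a row, 3 and 2 were listed, a lower share in each comparison, and this difference was not tested. In all, 35 of the 39 repair genes with a row (89.7%) were listed at D4 alone, against 7259 of the 9257 protein-coding genes with a row (78.4%), a difference that was not tested. The other 4 were listed in a METTL3 or METTL14 table.

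Atr, the apical kinase that answers single-stranded DNA at stalled forks, was listed for both METTL3 and METTL14 and not for D4. It lies on chr9:95857597-95951781, on the plus strand of GRCm38. Its mean normalized count was 585, at percentile 52.4 of the listed protein-coding genes. Per kb of its exons the mean was 24.8, at percentile 18.9, with 23629 bases of exons over all GENCODE transcripts of the locus. Over its longest coding transcript of 8102 bases the mean was 72.2 per kb. The choice of gene model thus moved the level of Atr per length by more than that of Nbn or Bard1, for which both lengths were the same. Other repair genes moved as well, among them Ung from 26.7 to 73.6 per kb and Rad51c from 26.8 to 72.1. The exons of Atr also overlap those of Gm24004 on its own strand and of 1700065D16Rik and Gm16794 on the other strand.

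Brca2, a tumour suppressor gene of homologous recombination, was listed for METTL3 and for D4. It lies on chr5:150522630-150570329, on the plus strand, with a mean normalized count of 465 and 34.0 per kb of exons. Its coding sequence of 9987 bases was the longest among the 42 genes, and its exons overlap those of Gm42529 on the other strand.

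Nbn encodes NBS1, the subunit of the MRN complex that recruits ATM. It was listed for METTL3 and for D4, lies on chr4:15957925-15992589 on the plus strand and had a mean of 545. Its level per kb, 215, was the highest of these 4 genes. No exon of Nbn overlaps another gene.

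Bard1, the obligate partner of Brca1 in an E3 ubiquitin ligase, was listed for METTL14 and for D4. It lies on chr1:71027498-71103146 on the minus strand, with a mean of 309.5 and 54.7 per kb of exons. Brca1 itself had a mean of 590.4 and 69.2 per kb and was listed at D4 alone. No exon of Bard1 overlaps another gene.

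Levels were read from the pooled mean, which covers 6 libraries in GM and 2 at D4. For the 38 genes listed at D4 it is therefore the level of neither state, and the order of genes may differ within each. The median mean normalized count of the repair genes was 307 (quartiles 208 and 626) over 39 genes, against 545 (177 and 1257) over the 9257 listed protein-coding genes. Per kb of exons the median was 50.1 against 114, and 9 of the 39 repair genes (23.1%) lay above the median of all listed genes. Over the longest coding transcript the medians were 72.1 and 181 per kb. Of the 39 genes, 32 (82.1%) had a mean count from 100 to 1000, a range that held 50.7% of the listed protein-coding genes, and 5 (12.8%) were at 1000 or above, against 31.4%. The span from lowest to highest was 48.2-fold for counts and 60.5-fold per kb.

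**Figure D2:**
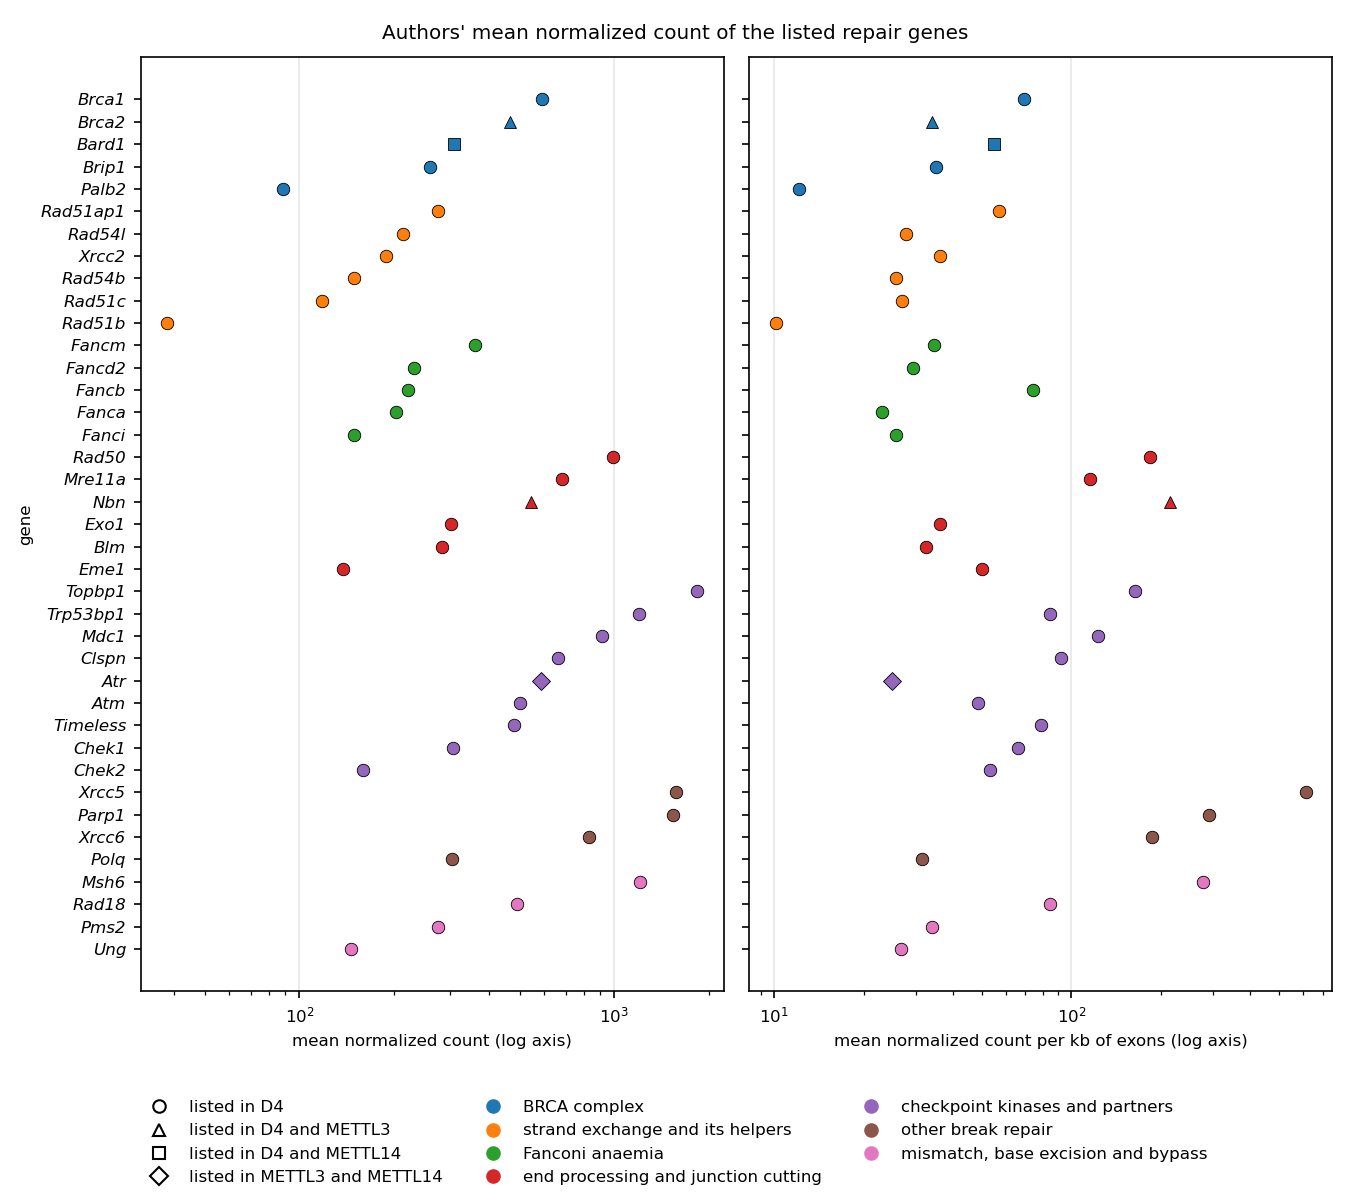
Each point is the authors' mean normalized count of one of the 39 listed repair genes (left, log axis) and the same count per kb of exons (right, log axis), with colour for the group and shape for the tables that list the gene. Per kb, Rad51b is lowest at 10.1 and Xrcc5 highest at 613.

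In the BRCA complex the mean counts ran from 88.7 for Palb2, the bridge between BRCA1 and BRCA2, to 590.4 for Brca1. These genes also had the lowest and highest level per kb, 12.1 and 69.2. Brip1, the helicase that binds the BRCT repeats of BRCA1, had 34.9 per kb, close to the 34.0 of Brca2.

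The strand exchange genes had the lowest median count of the groups, 169. Rad51b had a mean of 38.1 and 10.1 per kb, the lowest of all the repair genes on either scale. Rad51ap1 had a mean of 275 and 57.1 per kb. The other listed members, Rad51c, Rad54b, Rad54l and Xrcc2, lay between 25.7 and 36.1 per kb.

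The Fanconi anaemia genes, whose products unhook crosslinks between DNA strands, had means from 149 for Fanci to 361 for Fancm. Fanci and Fancd2, which form the clamp that the core complex ubiquitinates, had 25.7 and 29.2 per kb. Fancb, an X-linked core subunit, had the highest level of the group per length, 74.5 per kb, although its count of 222 was the median of the group. The order by count and the order per length thus differed in this group.

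Among the genes of end processing and junction cutting, the 3 subunits of the MRN complex had the highest levels. Rad50, its ATPase, had a mean of 989.9 and 184 per kb, and Mre11a, its nuclease, had 115 per kb. Exo1, the exonuclease of long-range resection, and Blm, the Bloom helicase, had 36.0 and 32.3 per kb. Eme1, the partner of the MUS81 nuclease, had the lowest count, 138.

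The checkpoint genes ran from 159 for Chek2, the kinase downstream of ATM, to 1834 for Topbp1, the activator of ATR. Topbp1 had the highest count of all the repair genes, and its level per kb was 163. Atm, with 48.5 per kb, and Chek1, with 66.1 per kb, lay below Mdc1, the adaptor that binds phosphorylated H2AX, with 123 per kb. Clspn, which carries the signal from ATR to CHK1, had 92.1 per kb.

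Other break repair held the highest levels per length. Xrcc5, which encodes KU80 of the end-joining Ku dimer, had a mean of 1566 and 613 per kb, at percentile 90.0 of the listed protein-coding genes. Xrcc6, which encodes its partner KU70, had 186 per kb, and Parp1, the first responder to strand breaks, had 291 per kb. Polq, the polymerase of microhomology-mediated joining, had a mean of 305 and 31.5 per kb.

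In the last group, Msh6, which recognises mismatches, had a mean of 1204 and 277 per kb. Pms2, the endonuclease of mismatch repair, had 34.0 per kb. Ung, which removes uracil from DNA, had a mean of 146 and 26.7 per kb, and Rad18, the ligase that marks PCNA for damage bypass, had 84.8 per kb.

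Beyond the 42 genes, 96 further repair and checkpoint genes were examined in 8 lists. D4 against GM listed 71 of them (74%), which included 20 of 23 for homologous recombination, 7 of 9 for the Fanconi pathway, 6 of 7 for mismatch repair, 12 of 16 for base excision repair, 8 of 12 for nucleotide excision repair and 11 of 11 for the checkpoint. For end joining 5 of 11 were listed (45.5%) and for damage bypass 2 of 7 (28.6%), beside the 40.0% of all protein-coding genes, and differences between lists were not tested. The end-joining list does not hold Xrcc5 and Xrcc6, which are among the 42 genes and were listed at D4. Lig4, Xrcc4, Nhej1, Polm, Poll and Rnf8 were the end-joining genes with no row in any table. METTL3 against GFP listed 5 of the 96 (5.21%) and METTL14 against GFP listed 3 (3.12%). Trp53, which encodes the p53 tumour suppressor, was listed in each and had a mean of 2287.

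Genes of DNA replication and of mitosis are other cycling-cell genes and were set beside the repair genes. D4 against GM listed 38 of 39 replication genes and 30 of 30 mitosis genes. The background was 40.0% of all protein-coding genes and 95.1% of those with a row in any table. METTL3 against GFP listed 1 replication gene, Orc6 of the origin recognition complex, and METTL14 against GFP listed Orc6 and Gins3, whereas neither listed a mitosis gene. Of all protein-coding genes, these comparisons listed 7.78% and 4.90%, and differences between lists were not tested. The median level was 50.1 per kb for the repair genes, 141 for replication and 205 for mitosis, with 77.0 for the 96 further repair genes.

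The promoter windows were then searched for short motifs. RefSeq windows of 300 bases, from 250 before to 50 after an annotated start, were found for 36 of the 42 genes, and none was held for Exo1, Fancd2, Nbn, Rad50, Rad54b and Xrcc2. The 4 motifs sought, on both strands, were the E2F motif (TTTCCCGC, TTTCGCGC, TTTGGCGC or TTTGCCGC), bound by the factors that switch on S-phase genes; the CHR (TTTGAA or TTCGAA), bound by the DREAM and MuvB complexes of late cell cycle genes; CCAAT, bound by NF-Y; and the E-box CAGCTG, favoured by MyoD and myogenin. None of these letter strings contains another. A match is a description of the letters and not evidence of binding, and the absence of a match says only that these letters are not in the window.

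An E2F motif was present in 10 of the 36 genes (27.8%), against 3.29% of 17491 protein-coding genes and 4.92% of those listed in any table. The 10 genes were Bard1, Brca2, Chek2, Clspn, Fancg, Mdc1, Msh6, Rad51c, Topbp1 and Xrcc6. Among replication genes the share was 45.2%, among the further repair genes 6.85% and among mitosis genes 4.17%. The 11 matches are given with 10 bases on each side, on the strand of the gene and with the motif in capitals, since this motif stood furthest above its share among all promoters. Rad51c has 2 annotated starts with a match at each.
Bard1 (chr1:71103164-71103191, minus strand): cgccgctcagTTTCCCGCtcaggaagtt
Brca2 (chr5:150522443-150522470, plus strand): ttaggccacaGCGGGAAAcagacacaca
Chek2 (chr5:110839821-110839848, plus strand): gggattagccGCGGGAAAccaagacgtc
Clspn (chr4:126556991-126557018, plus strand): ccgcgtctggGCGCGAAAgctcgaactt
Fancg (chr4:43010336-43010363, minus strand): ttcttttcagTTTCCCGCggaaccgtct
Mdc1 (chr17:35841472-35841499, plus strand): cttcagcctgTTTCCCGCcggtagccgc
Msh6 (chr17:87975055-87975082, plus strand): tcctcccgacTTTCCCGCcagcggcggc
Rad51c (chr11:87404478-87404505, minus strand): tttccagcgcTTTCGCGCctcttgctct
Rad51c (chr11:87404942-87404969, minus strand): ccccgcgaggGCGGGAAAagcaaggggt
Topbp1 (chr9:103305188-103305215, plus strand): cgctcggttgGCGCGAAAgtcggttccc
Xrcc6 (chr15:82016313-82016340, plus strand): gggggtggaaGCGGGAAAtgcgagtggg
TTTCCCGC was the form in 8 of the 11 matches, read on the strand of the gene or as GCGGGAAA on the other, and TTTCGCGC in the other 3. Of the matches, 7 lay wholly before the start and 5 were on the strand of the gene. The matches of Clspn and Msh6 and one of those of Rad51c began after the start.

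**Figure D3:**
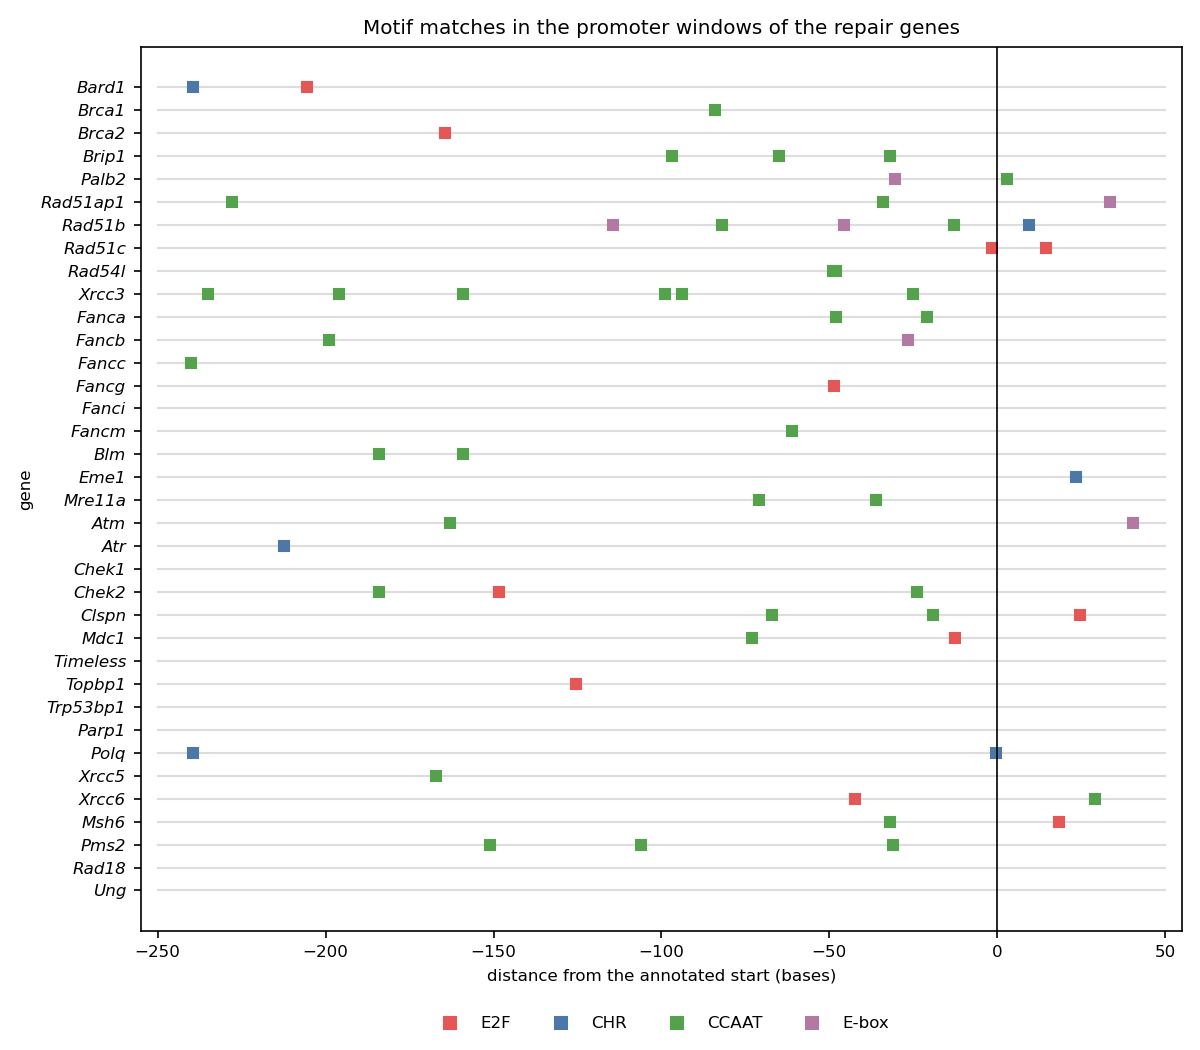
Squares mark the midpoint of each motif match by its distance in bases from the annotated start (horizontal axis) for the 36 repair genes with a promoter window (vertical axis), with a colour for each motif and all windows of a gene drawn on 1 line. E2F matches are present in 10 genes and CCAAT matches in 21, and 7 genes have no match.

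The other motifs were closer to their general share. CCAAT was present in 21 of the 36 repair genes (58.3%), against 42.3% of all protein-coding genes, 61.3% of replication genes and 75% of mitosis genes. Xrcc3 had 6 CCAAT matches and Brip1 and Pms2 had 3 each. The CHR was present in 5 repair genes (13.9%), Atr, Bard1, Eme1, Polq and Rad51b, against 20.2% of all genes and 79.2% of mitosis genes. The E-box was present in 5 (13.9%), Atm, Fancb, Palb2, Rad51ap1 and Rad51b, against 17.4% of all genes and 42.9% (3 of 7) of the muscle markers. In all, 29 of the 36 genes held an E2F, CHR or CCAAT match and 5 held both E2F and CCAAT. Chek1, Fanci, Parp1, Rad18, Timeless, Trp53bp1 and Ung held no match. The median GC content of the windows was 59.0%, against 56.3% for all protein-coding genes and 60.8% for those listed, so that base composition was near that of listed genes.

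**Figure D4:**
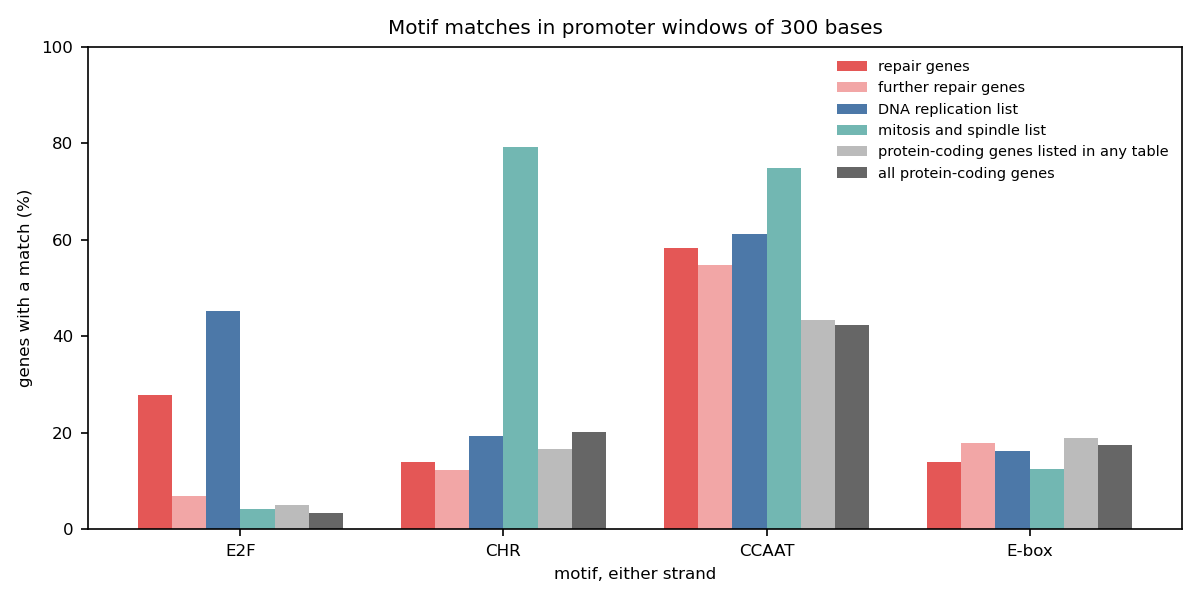
Bars give the share of genes with at least 1 match in a promoter window, in percent, for 4 motifs in the repair genes, the further repair genes, the replication and mitosis lists and all protein-coding genes. For E2F the repair genes (27.8%) lie between replication (45.2%) and mitosis (4.17%), and for the CHR they lie far below mitosis (79.2%).

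The genomic arrangement of the repair genes was also examined. A head-to-head pair was defined as another protein-coding gene on the opposite strand whose 5′ end lies at most 1000 bases upstream. Of the 42 genes, 13 were in such a pair (31%), against 6.77% of all protein-coding genes and 9.88% of those listed. The share was 27.1% for the further repair genes, 12.8% for replication and 6.67% for mitosis. In the strand exchange group, 5 of 7 genes were paired, and none were in end processing or in other break repair. The gaps between 5′ ends were 30 bases for Fancd2 and Emc3, 56 for Palb2 and Dctn5, 111 for Rad51c and Tex14, and 117 for Pms2 and Aimp2, and they reached 978 for Rad51b and Zfyve26. Topbp1 with 1300017J02Rik, Rad54l with Pomgnt1, Brca1 with Nbr1, Chek2 with Hscb, Fancb with Mospd2, Xrcc3 with Zfyve21, Atm with Npat and Rad51ap1 with D6Wsu163e lay between 133 and 375 bases apart.

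In 8 of the 13 pairs each gene had a mean count, and per kb the partner was higher in 6 of these 8. Emc3, a subunit of the ER membrane complex, had 687 per kb against 29.2 for Fancd2. Nbr1, an autophagy receptor, had 388 per kb against 69.2 for Brca1. Npat, the activator of histone gene transcription, had 96.0 per kb against 48.5 for Atm. Fancb at 74.5 per kb lay above Mospd2 at 54.2, and Rad51ap1 at 57.1 lay above D6Wsu163e at 46.8. The partner was listed at D4 in 8 of the 13 pairs, beside 40.0% of all protein-coding genes, and the other 5 partners had no row in any table. All 8 partners with a row were thus listed at D4, beside 95.1% of the protein-coding genes with a row. Zfyve26 was also listed for METTL3, whereas Rad51b was not.

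**Figure D5:**
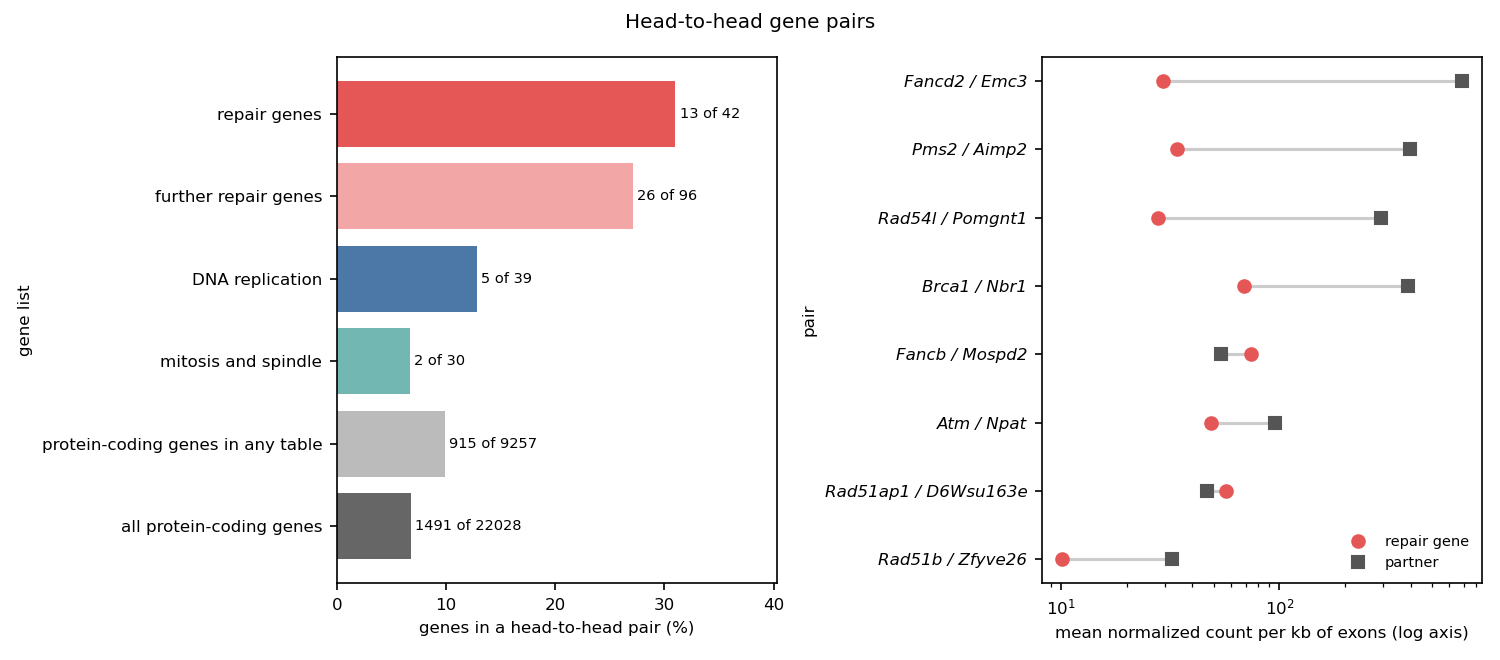
The left panel gives the share of each gene list that is in a head-to-head pair, in percent, and the right panel gives the mean normalized count per kb of exons (log axis) of the repair gene and its partner in the 8 pairs with a value for each. The share is 13 of 42 for the repair genes and 26 of 96 for the further repair genes, and the partner lies to the right of the repair gene in 6 pairs.

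The genes were long in coding sequence and rich in exons. The median coding sequence was 2622 bases, against 1173 over all protein-coding genes and 1410.0 over those listed, and the median number of exons was 16 against 7 and 9. Atm had 64 exons, Atr 47 and Fancd2 44, whereas Xrcc2 had 3. For 19 of the 42 genes (45.2%) an exon overlaps that of another gene, against 36.3% of listed protein-coding genes, and for 17 the overlap is with the opposite strand. Whether counting used the strand, and how reads in shared exons were assigned, is not stated in the sources used here. The overlap may therefore raise or lower the mean of any of these 19 genes that has a row. On the opposite strand they include Brca2, Palb2, Xrcc6 with Desi1, Msh6 with Fbxo11 and Trp53bp1 with Tubgcp4. For Parp1 and Pms2 the overlap is on the same strand alone. Fancc and Xrcc3 have an overlap but no mean.

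Because METTL3 and METTL14 favour adenosine within the core GGACT, this string was counted in the longest coding transcript of each gene. Of the 42 genes, 40 held at least 1 match, against 85.1% of all protein-coding genes, whose coding sequences are shorter in the median. Rad51c and Ung held none. The median density was 0.872 per kb, against 1.03 over all protein-coding genes and 1.05 over those listed. Exo1 had the most matches, 21 (2.69 per kb), followed by Polq with 15 (1.75 per kb). Among the 4 genes listed in a METTL3 or METTL14 table, Bard1 held 1 match (0.177 per kb), Atr 3 (0.37 per kb), Nbn 3 (1.18 per kb) and Brca2 5 (0.466 per kb), so that 3 of the 4 lay below the median of the repair genes. A match to the letters does not show that a site is methylated.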

How the data were processed

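RNA-seq of 8 C2C12 libraries was described from 3 deposited tables. The authors aligned reads with hisat2 to GRCm38, counted them with featureCounts over the Ensembl annotation and compared groups with DESeq2 (versions of these tools not given in the sources used here). The deposited signal is a mean normalized count, the count divided by size factors and averaged over libraries by the authors, and it differed between tables by at most 4.77e-10 of its value. The tables also hold the authors' fold changes with their standard errors, test statistics, p-values and adjusted p-values, which were not used. No test was possible, since no value per library is given.

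Members were matched by symbol, and exon lengths, exon overlaps and head-to-head pairs came from GENCODE M21 (GRCm38). Of the table rows, 8808, 1713 and 1079 matched its protein-coding genes. Counts per kb used the union of all exons of a gene. Promoter windows and motifs used RefSeq sequences of GRCm38.p6, and the motif search was tested on simulated data. Distances of motifs are from RefSeq starts, which can differ from the GENCODE gene ends. Tables were joined with pandas 2.3.3 under Python 3.11.15.

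The members and lists were chosen with earlier results of these data known. Named with values were the members in a METTL3 or METTL14 table and the highest and lowest count of each group. Other members, and genes of other lists, were named after their values were seen. The alternatives were a mean count of at least 100, gene synonyms, another denominator, a geometric mean, and the gene strand or the nearest 150 bases for motifs. For head-to-head pairs and lengths they were chosen after seeing the data. Some genes are not reported here by name.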

Additional observations from a re-analysis of the deposited data

How the results depend on the processing

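No paired analysis was possible because the tables hold no value per library, and for the same reason no replicate could be left out. Of 26 alternatives, 13 left the value within its limit, among them all those for the count of listed repair genes. With genes listed in any table as the denominator, the background share became 95.1% at D4, 18.5% for METTL3 and 11.7% for METTL14. Counting only listed genes with a mean count of at least 100, still over all annotated protein-coding genes, gave 33.0%, 6.72% and 4.18%. These values could only fall with the limit and are not shares among genes at that count. The repair genes listed at that limit numbered 36 at D4, 3 for METTL3 and 2 for METTL14. On the gene strand alone, 5 repair genes held an E2F motif (13.9%, against 1.7% of all protein-coding genes). On that strand 10 held CCAAT (27.8%, against 24.5%), so that CCAAT lay near its general share. Within the 150 bases before the start, 4 held E2F (11.1%, against 1.8% of all protein-coding genes). In that stretch 0 held the CHR (against 10.2%) and 3 the E-box (8.33%, against 9%). Without the members that have an exon overlap, 8 of 23 genes were in a head-to-head pair. As a separate setting, the background over all listed genes, with no filter for overlap, was 9.88%. Both settings for pairs were chosen after seeing the data. The tables give no depth and no spread per library, so no precision is given for a mean count.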
